A study of Mus musculus with 6 samples.

Results

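The genes described here encode 10 neuropeptide precursors, Npy, Pdyn, Trh, Penk, Sst, Cck, Tac1, Pomc, Vip and Adcyap1. These are 10 of the 22374 genes that could be named on the array. They were taken as all noncontrol probes whose gene name in the scanner files is one of these symbols, which gave 11 of 55681 probes, with 1 probe per gene and a second one for Pdyn. The genes were chosen by their normalized signals in the very contrast shown here, since Npy, Pdyn and Trh had already been seen to differ between the fractions, so the differences of the 10 genes are given as a description without a test. Cells were taken from pooled cerebella of neonatal mice, given in the labels as wild-type CD1 pups of postnatal days 1 to 3, whereas the text of the paper gives wild-type mice on a C57BL/6 background and an age of postnatal days 0 and 1. A+/G+ cells carry ACSA-2, an antigen on the sodium pump subunit encoded by Atp1b2, together with the glutamate transporter GLAST, encoded by Slc1a3, and were collected with anti-ACSA-2 beads alone. A-/G+ cells carry GLAST without ACSA-2 and were collected with GLAST beads after depletion of cells bearing L1CAM, ACSA-2, CD45, PSA-NCAM or Ter119. A depletion step thus preceded the selection of A-/G+ cells but not that of A+/G+ cells. The paper counted the rare cells with ACSA-2 but without GLAST together with A+/G+. By its flow cytometry, both fractions were enriched rather than pure. Each fraction was measured in 3 samples of 50000 cells, with 1 array per sample, and the labels give no treatment and no altered allele.

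Neuropeptides are made as long precursors that pass through the secretory pathway, where they are cut at pairs of basic residues, trimmed by carboxypeptidase E, in many cases amidated, and stored in dense core vesicles until a stimulus releases them onto G protein-coupled receptors. They are best known from neurons, including Purkinje cells and interneurons of the cerebellum. Astrocytes and their precursors can also hold precursor transcripts such as those of Penk, Sst and Npy.

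The 75th percentile of the scanner intensity was 332 to 334 on the A+/G+ arrays and 56.6 to 251 on the A-/G+ arrays, and 26476 to 26655 probes were well above background in A+/G+ compared with 18340 to 24730 in A-/G+. Each fraction lay on a slide and a scan of its own, and slide cannot be told apart from fraction. Between replicate arrays, the SD of the log2 difference over all probes was 0.42 to 0.48 in A+/G+ and 0.772 to 0.995 in A-/G+. The difference of Atp1b2, A+/G+ minus A-/G+, was 2.16 (adjusted p = 0.00725, limma), and Slc1a3 was well above background on all 6 arrays. All 9 listed markers of parenchymal astrocytes and all 8 of Bergmann glia were well above background on every array. Values below are log2 intensities after quantile normalization, and a probe is called well above background where the scanner software marks it so. Levels of different probes are not compared with each other. A gene is called when the adjusted p from limma, over all probes, does not exceed 0.05 and its medians are 4-fold apart or more.

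The 3 genes that had been singled out encode the precursors of neuropeptide Y, the dynorphins and thyrotropin-releasing hormone. Npy was higher in A-/G+, whereas Pdyn and Trh were higher in A+/G+ and near background in A-/G+. The coding probes of Npy, Pdyn and Pomc are shown because each covers the part of the precursor from which a peptide is cut. The Npy probe spans an exon junction on mm9 at chr6:49773743-49777505 and its capitals mark the codons of the amidation and cleavage signal that follows the peptide. The Pdyn probe shown is the dimmer of a pair and its capitals mark the codons of the core with which opioid peptides begin. The capitals in the Pomc probe mark the stop codon after the last peptide of that precursor.
Npy probe: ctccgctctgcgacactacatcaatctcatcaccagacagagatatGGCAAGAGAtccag
Pdyn coding probe: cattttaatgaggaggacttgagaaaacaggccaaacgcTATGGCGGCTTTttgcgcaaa
Pomc probe: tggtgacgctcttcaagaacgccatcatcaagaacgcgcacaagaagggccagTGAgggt

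Npy encodes neuropeptide Y, a peptide of many inhibitory neurons. Its normalized log2 signal was 5.84, 6.09 and 5.84 in replicates 1, 2 and 3 of A+/G+ and 9.32, 9.30 and 9.36 in those of A-/G+, and this sequence of replicates holds for the values of all genes. The groups did not overlap, and the A-/G+ arrays lay closer together than the A+/G+ arrays. The probe was well above background on all 6 arrays. For A+/G+ the mean was 5.93 ± 0.145 (SD, n = 3), for A-/G+ 9.33 ± 0.03 (SD, n = 3), a difference of -3.40 (standard error 0.09) for A+/G+ minus A-/G+, and the medians differed 11.2-fold. The same direction was present before normalization, when the scanner intensity was 95.9, 109 and 93.0 in A+/G+ and 174, 368 and 838 in A-/G+. Npy was thus brighter in A-/G+ although those arrays were dimmer as a whole. Beside Npy, 4 of 8 markers of Bergmann glia were called higher in A-/G+ and none in A+/G+, where the shares over all genes are 0.42% and 2.77%. The mean level of the list was 12.04 to 12.70 in A-/G+ compared with 10.11 to 10.49 in A+/G+. The 4 called markers, Gdf10, Gria1, Wif1 and Mybpc1, had already been listed by the paper among A-/G+ genes from these same arrays. The count is therefore a description only. The paper also listed Npy there and stained its protein in Bergmann glia progenitors. The marker list holds Slc1a3 as well, which encodes GLAST, the target of the A-/G+ selection. Gdf10 and Gria1 differed by -3.003 and -3.58, and Gria4 by -1.36 without being called at its brightest probe, although its other probe was called higher in A-/G+. In bulk samples such as these, a different share of cells of a type and a different amount of RNA per cell cannot be told apart.

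**Figure D1:**
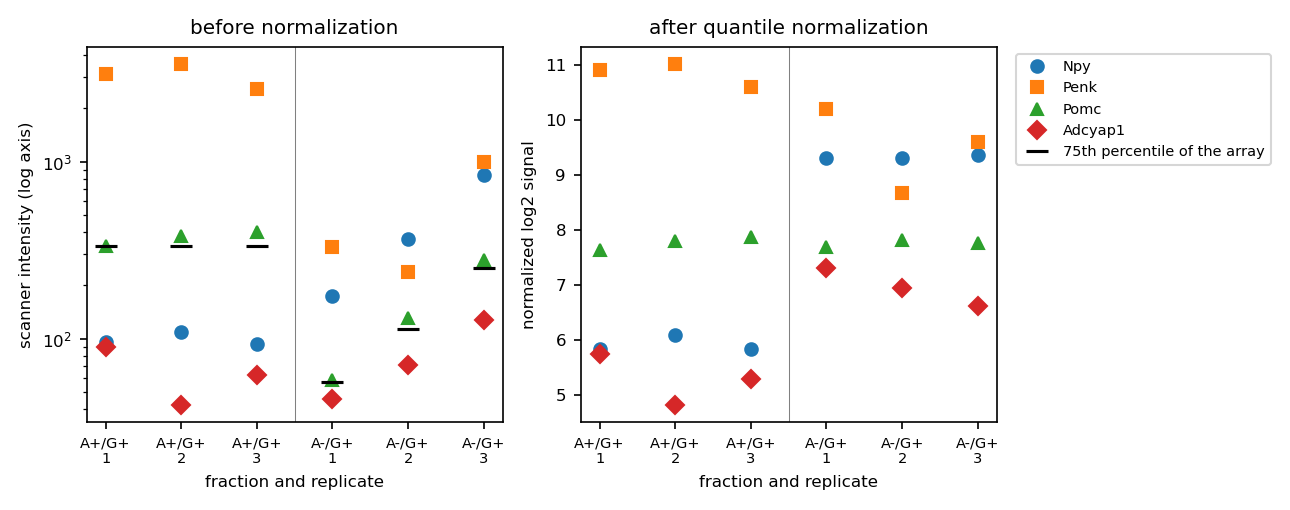
Scanner intensity (left, log axis) and normalized log2 signal (right) of Npy, Penk, Pomc and Adcyap1 on the 6 arrays, labeled by fraction and replicate. The bars on the left mark the 75th percentile of each array, and Npy exceeded it on the 3 A-/G+ arrays and stayed under it on the 3 A+/G+ arrays.

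Pdyn encodes prodynorphin, the source of the dynorphins and neoendorphins that act on the kappa opioid receptor. Its brighter probe lies at chr2:129512323-129512382 of mm9. The log2 signal was 8.33, 7.84 and 8.46 in A+/G+ and 2.05, 2.02 and 4.33 in A-/G+. The groups did not overlap, and replicate 3 of A-/G+ stood above the other two arrays of its fraction and was the only A-/G+ array on which the probe was well above background. The means were 8.21 ± 0.33 (SD, n = 3) and 2.80 ± 1.32 (SD, n = 3), with a difference of 5.41 (standard error 0.71) that rests on A-/G+ signals at background in replicates 1 and 2. Without replicate 3 of A-/G+ the difference was 6.17, and with any other single array left out it was at least 5.02. The coding probe, at chr2:129513968-129514027, was nowhere well above background. Its signals were 3.30, 2.97 and 3.73 in A+/G+ and 2.09, 2.07 and 2.02 in A-/G+. The groups did not overlap, but at background level nothing is read from this.

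Trh encodes the precursor of thyrotropin-releasing hormone, which holds several copies of the tripeptide. Its probe lies at chr6:92192061-92192120 of mm9. The log2 signal was 8.22, 8.49 and 8.46 in A+/G+ and 2.47, 4.80 and 2.76 in A-/G+. All A+/G+ arrays were well above background and no A-/G+ array was, although replicate 2 stood above the other two. The means were 8.39 ± 0.145 (SD, n = 3) and 3.34 ± 1.27 (SD, n = 3), which differed by 5.05 (standard error 0.67). Since the A-/G+ level has only a limit, the excess of Trh in A+/G+ was at least 11.5-fold. This takes for each A-/G+ array either the probe's own signal or, where higher, the dimmest signal of any probe marked well above background. Each fold given as at least a value holds for these quantile normalized signals and not under every processing. Without replicate 2 of A-/G+ the difference was 5.77.

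**Figure D2:**
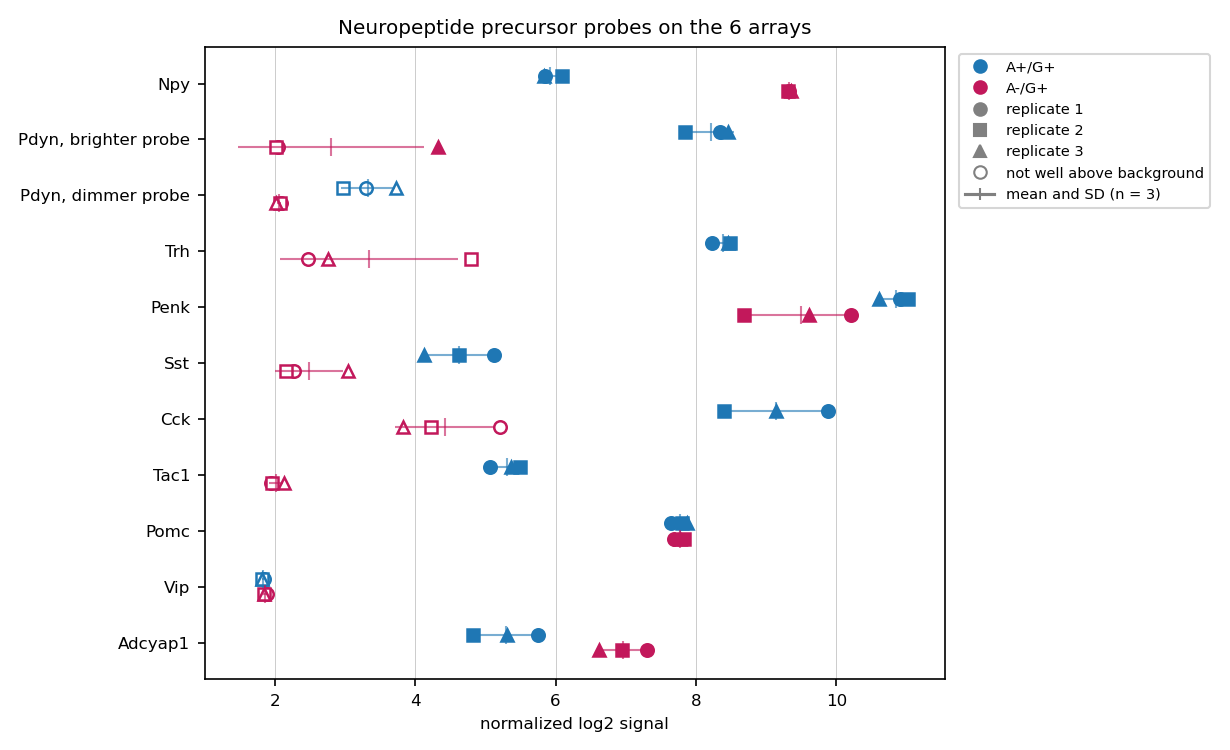
Normalized log2 signal (horizontal axis) of the 11 probes of the 10 precursor genes, with 1 point per array, shaped by replicate and colored by fraction, and a line for the mean and SD (n = 3). Open points were not well above background, as for Trh, Cck, Sst and Tac1 on all 3 A-/G+ arrays, and the groups of Pomc overlap.

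Penk encodes proenkephalin, the source of the enkephalins, and was well above background on every array. Its probe lies at chr4:4060724-4060783 of mm9, and the log2 signal was 10.91, 11.02 and 10.61 in A+/G+ and 10.20, 8.68 and 9.61 in A-/G+. There was no overlap, but replicate 1 of A-/G+ came close to the lowest A+/G+ array. The means of 10.85 ± 0.21 and 9.50 ± 0.77 (SD, n = 3 each) differed by 1.35 (standard error 0.42), with medians 2.46-fold apart. Leaving out single arrays moved the difference between 0.94 and 1.70. Pomc, the precursor of corticotropin, the melanocortins and beta-endorphin, was also well above background on all arrays. At chr12:3960413-3960472 its log2 signal was 7.64, 7.80 and 7.88 in A+/G+ and 7.69, 7.83 and 7.78 in A-/G+. The groups overlapped, with means 0.01 apart (standard error 0.08).

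Sst and Cck mark interneurons in many brain regions. Somatostatin is an inhibitory peptide, and its precursor was measured by 10 spots of 1 probe at chr16:23889776-23889835 of mm9. The log2 signal was 5.12, 4.62 and 4.13 in A+/G+, each well above background, and 2.27, 2.16 and 3.05 in A-/G+, none of them well above background. The groups did not overlap and differed by 2.13 (standard error 0.36). No fold is given for Sst, because its A+/G+ mean of 4.62 was not above the limit that the dimmer A-/G+ arrays allow. In scanner intensity, the medians of the 10 spots were 57.2, 34.3 and 24.6 on the A+/G+ arrays and 3.78, 3.81 and 11.5 on the A-/G+ arrays. The dimmest spot of any A+/G+ array, at 19.7, was above the brightest of any A-/G+ array, at 15.96, but spots of 1 array are not replicates. These intensities are not adjusted for array brightness, and the A-/G+ arrays were dimmer as a whole. With each array shifted to its 75th percentile, Sst was at 5.101, 4.422 and 3.891 in A+/G+ and 3.891, 2.815 and 2.871 in A-/G+. The lowest A+/G+ value then met the highest A-/G+ value.

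Cck encodes cholecystokinin, a peptide found in gut and brain. At chr9:121398943-121399002 its log2 signal was 9.88, 8.39 and 9.14 in A+/G+ and 5.21, 4.23 and 3.82 in A-/G+. The groups were far apart, and none of the A-/G+ arrays was well above background. The means were 9.14 ± 0.75 and 4.42 ± 0.72 (SD, n = 3 each), the difference was 4.72 (standard error 0.54), and A+/G+ exceeded A-/G+ at least 19.3-fold. Cck had the widest spread of the members within A+/G+. The markers of Purkinje cells moved with Cck between the fractions. Of 9, 6 were called higher in A+/G+ and none in A-/G+, where the shares over all genes are 2.77% and 0.42%. The mean level of that list was 7.01 to 8.13 in A+/G+ and 4.39 to 4.91 in A-/G+. Pcp2 was at 11.52, 9.86 and 10.48 in A+/G+, Calb1 at 10.27, 8.68 and 9.46, and Car8 at 6.73, 5.65 and 6.30. Replicate 1 was thus the highest and replicate 2 the lowest for these markers as well as for Cck. In A-/G+, Calb1 and Car8 were nowhere well above background. The part of Purkinje cell RNA in the Cck result was not tested.

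**Figure D3:**
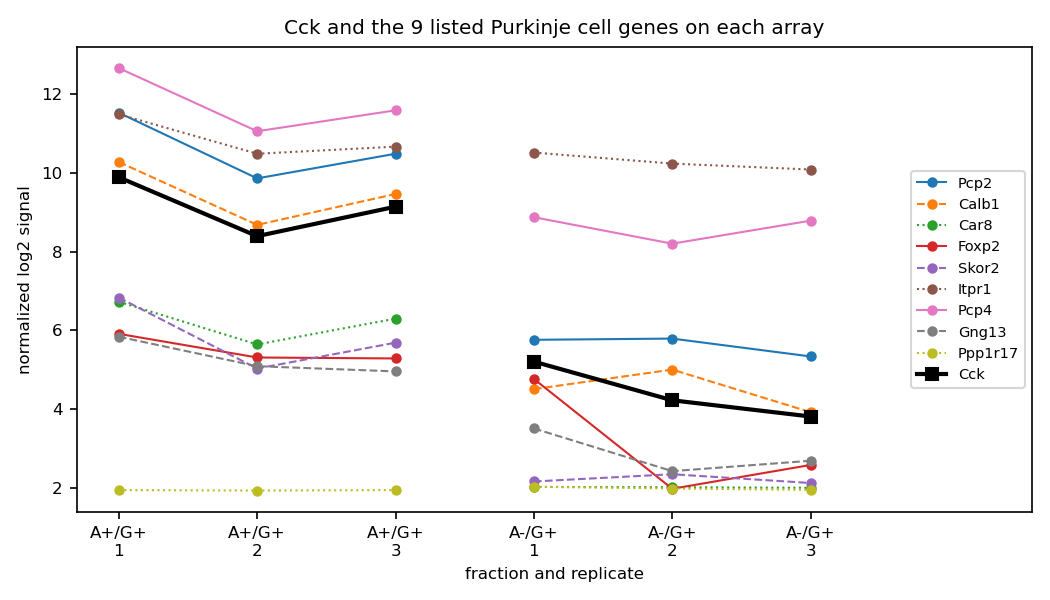
Normalized log2 signal (vertical axis) of Cck (black squares) and of the 9 listed Purkinje cell genes on each array, with lines that join the values of 1 gene within a fraction. In A+/G+, Cck, Pcp2, Calb1 and Car8 were highest on replicate 1 and lowest on replicate 2, whereas Ppp1r17 stayed near 2 on all arrays.

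Tac1, Vip and Adcyap1 encode substance P with neurokinin A, vasoactive intestinal peptide, and the adenylate cyclase-activating peptide PACAP. At chr6:7512893-7512952 the log2 signal of Tac1 was 5.06, 5.49 and 5.37 in A+/G+ and 1.95, 1.96 and 2.13 in A-/G+. The values were apart, and only the A+/G+ arrays were well above background. The difference was 3.29 (standard error 0.13), but the limit on the A-/G+ arrays allows only at least 1.35-fold. Vip, at chr10:4699238-4699297, was nowhere well above background, with signals of 1.82 to 1.84 in A+/G+ and 1.85 to 1.89 in A-/G+. Nothing is read from its small separation at background level.

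Adcyap1, at chr17:93604401-93604460, was apart from Npy the only member with a higher mean in A-/G+ while well above background on all 6 arrays. Its log2 signal was 5.75, 4.83 and 5.30 in A+/G+ and 7.31, 6.94 and 6.62 in A-/G+. The groups did not overlap, the means differed by -1.67 (standard error 0.30), and the medians differed 3.12-fold. Unlike that of Npy, the scanner intensity of Adcyap1 overlapped between the fractions before normalization, at 89.4, 42.4 and 62.5 in A+/G+ and 45.7, 70.6 and 127 in A-/G+. Its separation therefore appears only after the arrays are adjusted for their brightness. It was also present with each array shifted to its 75th percentile, at 5.733, 4.645 and 5.205 in A+/G+ and 7.325, 6.949 and 6.639 in A-/G+.

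Counted over the members, 6 genes had all their A+/G+ values over the highest A-/G+ value and 3 had the reverse, among them Vip, which was at background. Over all 22374 genes at their brightest probe these shares were 20.1% and 22.8%. Over all genes, 619 (2.77%) were called higher in A+/G+ and 94 (0.42%) were called higher in A-/G+, and over all probes the shares were 1.53% and 0.399%. Of the members, 5 were past these limits in A+/G+, namely Pdyn, Trh, Sst, Cck and Tac1, and 1 in A-/G+, namely Npy. Sst was no longer past them with the 75th percentile shift, with normexp correction, with the methods' t-test, or without any single array other than replicate 3 of A-/G+. Pdyn and Trh were no longer past them with the methods' t-test or without any single A+/G+ array, and Pdyn also without replicate 2 of A-/G+. Cck was lost without replicate 3 of A+/G+ and Tac1 with normexp correction, whereas Npy was kept in each of these settings. Nothing is read from these counts, because this contrast served to choose the genes. The median difference of the 10 genes was 1.74, compared with -0.03 over all genes. Of the 5 members higher in A+/G+ past the limits, 4 (Trh, Sst, Cck and Tac1) had no A-/G+ array well above background, and Pdyn had 1.

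**Figure D4:**
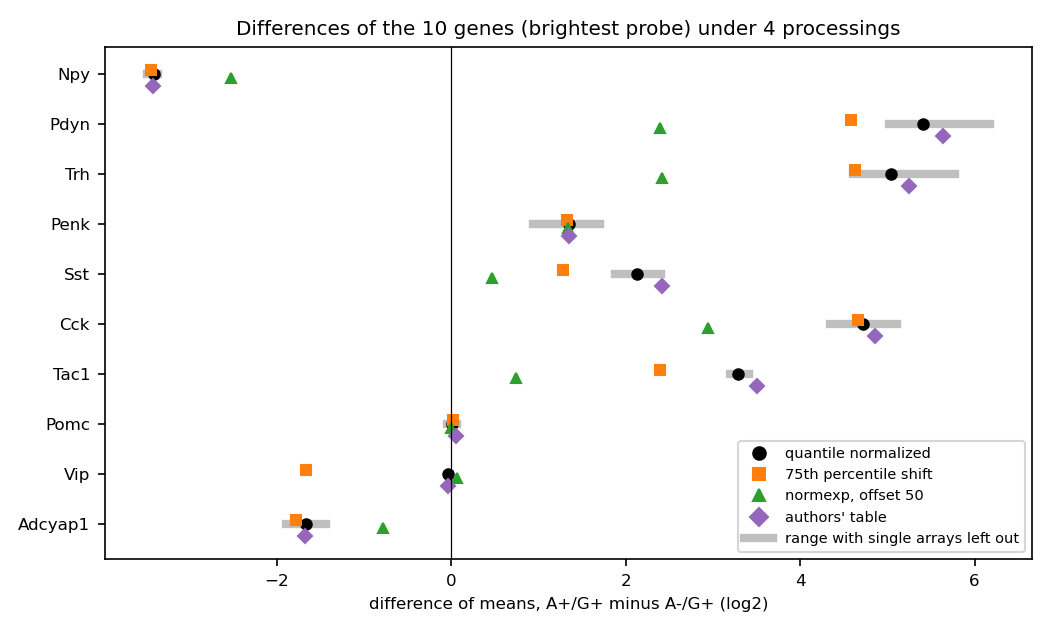
Difference of the means, A+/G+ minus A-/G+ (horizontal axis, log2), of the 10 genes at their brightest probe under 4 ways of processing, with a grey bar for the range when single arrays were left out. Apart from Pomc and Vip, each gene stayed on 1 side of 0, and normexp correction with an offset of 50 drew the dim genes toward it.

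The size of several differences depended on how background was handled. With normexp background correction and an offset of 50, which raises all dim signals, the difference was 2.39 for Pdyn, 2.42 for Trh, 2.95 for Cck, 0.74 for Tac1 and 0.47 for Sst, and -2.53 for Npy and -0.78 for Adcyap1. With each array shifted to its 75th percentile instead of quantile normalized, Sst differed by 1.28 and Tac1 by 2.39. Penk changed by less than the spread between its replicates under each alternative that was run.

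The sequences before the transcription starts are given because several precursor genes are known to respond to cyclic AMP through the site TGACGTCA, whose core is TGACG. RefSeq's promoter table, built on GRCm38.p6, held starts for 9 of the 10 genes, all but Penk. The 250 bases before the start are shown for Sst, which holds the full site, for Npy, Pdyn and Trh as the genes singled out, and capitals mark matches to TGACGTCA, TGACG or TATAAA on either strand, where TGACG also lies within TGACGTCA. Sst reads on the minus strand from chr16:23890845-23891094, Trh on the minus strand from chr6:92244651-92244900, Npy on the plus strand from chr6:49822460-49822709 and the first start of Pdyn on the minus strand from chr2:129699939-129700188.
Sst promoter: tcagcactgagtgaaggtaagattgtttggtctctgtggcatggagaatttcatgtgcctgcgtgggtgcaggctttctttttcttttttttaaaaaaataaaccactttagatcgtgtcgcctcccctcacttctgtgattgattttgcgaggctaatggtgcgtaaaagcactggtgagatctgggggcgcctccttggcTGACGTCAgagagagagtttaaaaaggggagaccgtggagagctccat
Trh promoter: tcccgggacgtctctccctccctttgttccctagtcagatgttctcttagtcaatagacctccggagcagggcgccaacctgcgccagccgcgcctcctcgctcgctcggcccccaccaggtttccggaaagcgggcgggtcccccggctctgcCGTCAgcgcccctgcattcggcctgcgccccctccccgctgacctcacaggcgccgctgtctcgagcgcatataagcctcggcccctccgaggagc
Npy promoter: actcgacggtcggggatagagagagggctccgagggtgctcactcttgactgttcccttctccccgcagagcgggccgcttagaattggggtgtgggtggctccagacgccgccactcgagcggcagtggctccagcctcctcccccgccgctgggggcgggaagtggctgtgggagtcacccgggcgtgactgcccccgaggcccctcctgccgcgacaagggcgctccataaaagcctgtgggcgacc
Pdyn promoter: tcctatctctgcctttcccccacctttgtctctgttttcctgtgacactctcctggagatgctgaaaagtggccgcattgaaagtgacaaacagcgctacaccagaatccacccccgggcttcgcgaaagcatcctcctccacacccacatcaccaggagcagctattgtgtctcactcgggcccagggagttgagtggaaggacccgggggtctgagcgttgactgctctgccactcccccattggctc

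TGACGTCA was found in 1 of the 9 genes, Sst, 48 bases before the start, and in 1.77% of 27025 genes in windows of the same length. TGACG was found in 6 of the 9, Trh, Sst, Cck, Tac1, Vip and Adcyap1, and in 19.8% of all genes. TATAAA was found in Pomc, Vip and Adcyap1, and in 14.3% of all genes. The windows of Npy and Pdyn held none of these letters. A match is a description of the sequence, and the members with TGACG include genes higher in A+/G+, a gene higher in A-/G+ and a gene at background.

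Around the precursors, 112 genes of 5 lists were examined, covering other peptide precursors, receptors of the members' peptides, enzymes that process precursors, dense core vesicle proteins and enzymes that degrade peptides. Of these, 12 were called higher in A+/G+ and none was called higher in A-/G+, where the shares over all genes are 2.77% and 0.42%. The lists were chosen with earlier results of these data known, so the count is a description only. For Nts, Nppc, Pnoc, Cckbr, Mc2r, Syt4 and Dpp4 among the 12, no A-/G+ array was well above background. The median difference of the 112 was 0.39, compared with -0.03 over all genes. With the adjusted p alone, without the size limit, 21 passed with a higher mean in A+/G+ and 6 with a higher mean in A-/G+. On no array were 38 of the 112 well above background.

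Of 46 other precursors, 4 were called higher in A+/G+, Nts, Adm, Nppc and Pnoc. Nts, the precursor of neurotensin, had a log2 signal of 6.75, 7.13 and 6.26 in A+/G+ and 2.03, 2.02 and 3.11 in A-/G+. The fractions were apart, no A-/G+ array was well above background, and Nts was at least 3.58-fold higher (difference 4.32, standard error 0.40, adjusted p = 0.00876, limma). Nppc, which encodes C-type natriuretic peptide, was at least 4.32-fold higher (difference 3.70, adjusted p = 0.0157, limma), and Pnoc, the precursor of the opioid-like nociceptin, at least 2.41-fold (difference 3.30, adjusted p = 0.0338, limma). Adm, which encodes adrenomedullin, was well above background on all arrays and had medians 5.81-fold apart, with 8.80, 9.02 and 9.02 in A+/G+ and 6.48, 5.73 and 6.80 in A-/G+ (adjusted p = 0.0132, limma). Cort, a relative of Sst, had a mean 1.23 higher in A-/G+ (adjusted p = 0.0201, limma) with medians 1.98-fold apart, under the size limit, and its arrays did not overlap. Npff, the precursor of neuropeptide FF, likewise had a mean 1.02 higher in A-/G+ (adjusted p = 0.0375, limma). Nmb and Ghrh, with differences of 0.83 and 2.73, did not pass (adjusted p = 0.0539 and 0.0752, limma), and 23 of the 46 were nowhere well above background.

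Of 28 receptors, 3 were called higher in A+/G+, the neuropeptide Y receptor Npy1r, the cholecystokinin receptor Cckbr and the corticotropin receptor Mc2r. Npy1r was at 8.91, 9.11 and 8.73 in A+/G+ and 6.98, 6.82 and 5.28 in A-/G+, well above background and without overlap (difference 2.55, standard error 0.50, adjusted p = 0.0451, limma). The receptor was thus higher in the fraction in which Npy was lower. Cckbr was at 6.26, 6.12 and 6.48 in A+/G+ and not well above background in A-/G+, at least 2.66-fold higher (adjusted p = 0.0172, limma), although its other probe was not called. Mc2r was dim, at 4.66 to 4.98 in A+/G+ and not well above background in A-/G+ (difference 2.24, adjusted p = 0.02, limma), and no fold can be given. The receptors of thyrotropin-releasing hormone (Trhr), somatostatin (Sstr1) and PACAP (Adcyap1r1) differed by 0.47, 2.18 and 0.61 without passing (adjusted p = 0.0686, 0.236 and 0.236, limma). Adcyap1r1 was well above background on all arrays, at 13.00 to 13.10 in A+/G+ and 11.97 to 12.91 in A-/G+. Vipr2, a receptor of vasoactive intestinal peptide and PACAP, differed by -0.30 (adjusted p = 0.332, limma). The kappa opioid receptor Oprk1, on which dynorphins act, was nowhere well above background, which held for 14 of the 28 receptors.

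Of 15 processing genes, 1 was called, Cpe, which encodes carboxypeptidase E. Its log2 signal was 16.14, 16.08 and 16.21 in A+/G+ and 13.33, 13.12 and 12.94 in A-/G+. All 3 probes of Cpe were called, and the brightest gave medians 8.11-fold apart (difference 3.01, standard error 0.12, adjusted p = 0.00269, limma). Genes of the same list with an adjusted p within the limit but medians under 4-fold apart went both ways. Rnpep, Pcsk6 and Pcsk5 had means 0.88, 1.38 and 1.49 higher in A-/G+ (adjusted p = 0.00835, 0.0163 and 0.0192, limma). Ctsl, which encodes cathepsin L, had a mean 1.28 higher in A+/G+ (adjusted p = 0.0225, limma). The prohormone convertases of dense core vesicles were measured as Pcsk1, which was nowhere well above background, and Pcsk2, which was so on all arrays, with 8.95, 8.30 and 8.13 in A+/G+ and 7.33, 6.63 and 8.89 in A-/G+. The values of Pcsk2 overlapped.

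**Figure D5:**
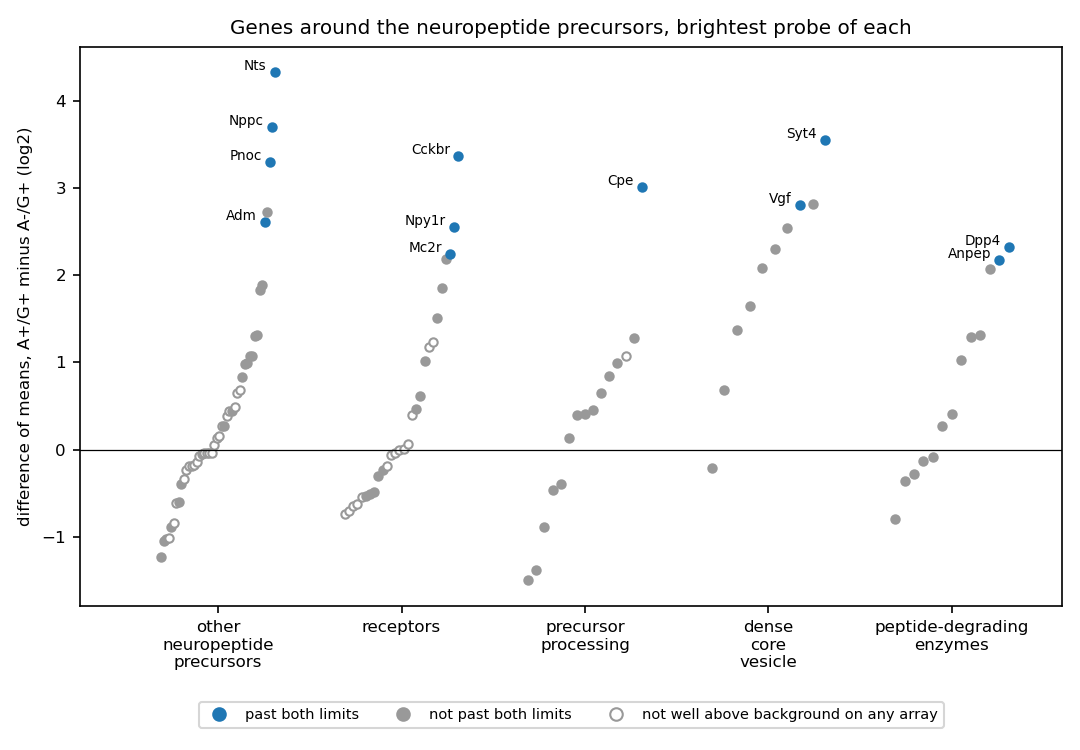
Difference of the means, A+/G+ minus A-/G+ (vertical axis, log2), of the 112 genes around the precursors, by list, with the brightest probe of each gene. The 12 named genes passed both limits, and open points, frequent among the other precursors and the receptors, were well above background on no array.

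Of 10 dense core vesicle genes, Vgf and Syt4 were called higher in A+/G+. Syt4, a synaptotagmin, was at 6.11, 5.36 and 5.24 in A+/G+ and 2.00 to 2.05 in A-/G+, where it was not well above background (at least 1.62-fold, adjusted p = 0.00531, limma). Vgf, itself the source of several peptides, was at 9.15, 8.28 and 7.81 in A+/G+ and 5.43, 4.88 and 6.52 in A-/G+ (difference 2.80, adjusted p = 0.0474, limma). Chgb, Scg2, Cadps and Ptprn had differences of 2.08, 2.82, 2.30 and 2.54 and did not pass (adjusted p = 0.0636 to 0.132, limma). These genes were higher on replicate 3 of A-/G+ than on the other arrays of that fraction, as in Scg2 with 5.35, 5.06 and 7.34. Sst and Pdyn also had their highest A-/G+ signal on that array, though Sst was not well above background there. Members did not all go this way. In A-/G+, Trh was highest on replicate 2, and Cck was lowest on replicate 3, with 5.21, 4.23 and 3.82. Without replicate 3 of A-/G+, 19 of the 112 genes were called instead of 12, Chga, Chgb, Scg2, Cadps and Ptprn among them. Of 14 pan-neuronal markers none was called, and the list's mean was 9.57 to 10.23 in A+/G+ and 8.35 to 9.57 in A-/G+. In A-/G+, Stmn2 was at 9.35, 8.97 and 11.18, highest on replicate 3, whereas Snap25 was at 11.21, 9.41 and 9.42 and Syt1 at 11.06, 11.35 and 10.98, which were not highest there. Their part in these results was not tested.

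Of 13 peptide-degrading enzymes, 2 were called higher in A+/G+. Anpep, aminopeptidase N, was at 10.12, 10.34 and 9.98 in A+/G+ and 8.38, 7.71 and 7.82 in A-/G+, without overlap (medians 4.91-fold apart, adjusted p = 0.00977, limma). Dpp4, dipeptidyl peptidase 4, which can shorten neuropeptide Y, was at 4.59 to 5.18 in A+/G+ and not well above background in A-/G+ (difference 2.32, adjusted p = 0.0191, limma), also without a bound on its fold. Thop1 had a mean 0.80 higher in A-/G+ (adjusted p = 0.0262, limma) and Ece1 one 1.29 higher in A+/G+ (adjusted p = 0.0476, limma), both under the size limit. Enpep and Nln, with differences of 2.07 and 0.41, did not pass (adjusted p = 0.0607 and 0.154, limma).

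The 12 calls depended on single arrays and on the background step. Without replicate 1, 2 or 3 of A+/G+, 5, 4 and 4 genes were called, with Cpe, Nts, Syt4 and Anpep kept each time. With normexp correction 2 of the 12 remained, Cpe and Anpep. The medians of Nts, Nppc, Pnoc and Cckbr were then 2.75-, 2.59-, 2.01- and 2.08-fold apart, under the least folds given for them above. Among the members, Trh and Cck also fell under their least folds with normexp correction, at log2 differences of 2.42 and 2.95.

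Genes of further marker lists also differed between the fractions. Over all genes, the shares called higher are 2.77% in A+/G+ and 0.42% in A-/G+. Called higher in A+/G+ were 5 of 8 ependymal and motile cilia genes, whose mean level was 8.51 to 9.21 compared with 4.43 to 6.08, 5 of 9 parenchymal astrocyte genes (11.3 to 11.6 and 8.36 to 9.09) and 2 of 6 oligodendrocyte precursor genes (10.2 to 10.6 and 7.80 to 8.96). Of 9 markers of GABAergic interneurons, Gad1 and Slc32a1 were called higher in A+/G+ (differences 2.69 and 2.84) and Ptf1a in A-/G+ (-2.69). Of 8 markers of brainstem monoamine neurons 1 was called higher in A+/G+, and the defining Tph2, Fev and Slc6a4 were nowhere well above background. Of 6 mural and fibroblast genes 1 was called higher in A+/G+. None was called among 8 granule neuron, 4 glutamatergic nuclear, 6 choroid plexus, 8 microglia, 6 endothelial and 4 erythroid genes. The paper had already named Ptf1a, and Agt and Slc6a11 of the parenchymal astrocyte list, from these same arrays, so the counts are a description only. The part of these cell types in the members' values was not tested.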

How the data were processed

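Gene expression was measured on 6 single-color Agilent mouse arrays, which the sample titles divide into 3 of each fraction. The authors deposited the intensity of each spot as given by Agilent Feature Extraction 10.7.3.1 after background correction. The authors also deposited a table of quantile normalized log2 values with 38 empty cells, which served as an alternative. The background step behind that table is not given in the sources used here. Here the scanner intensity was taken to log2, control spots and outlier spots were removed, quantile normalization followed, and replicate spots were averaged per probe. Each array holds 62976 spots, of which 59305 represent 55681 gene probes of 60 bases. All probes, dim ones included, entered 1 fit with limma 3.58.1 (R 4.3.3). A call required a Benjamini-Hochberg adjusted p no higher than 0.05 and medians 4-fold apart or more, as in the methods, which used Student's test. The fit was tested on simulated data.

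A gene takes its brightest probe over all 6 arrays, and a probe counted as well above background on an array where at least 0.5 of its spots were marked so. Names and positions follow the array's own annotation, on mm9. The RefSeq table of GRCm38.p6 held 22374 of these names and gave the promoters. The members and the lists were chosen with earlier results of these data known. Named are all members, the genes called in the 5 lists, and in each list up to 4 further genes of lowest adjusted p that were well above background on all arrays of a fraction. Of cell type lists the first 3 genes could be named, and for Npy, Pdyn and Trh the 5 genes with the nearest pattern. Of the latter, 1 is not reported here. Oprk1, Pcsk1, Pcsk2, Chga, Ptf1a, Ppp1r17, Wif1 and Mybpc1 were named after their values were seen.

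The alternatives tried were scaling by the 75th percentile, normexp with offset 50, the deposited log2 table, keeping outlier spots, leaving out dim probes, a replicate block, the methods' t-test, robust variance with trend, 2 other size limits, averaging a gene's probes, and dropping each array. Slide could not enter as a block, because each slide held 1 fraction. Precision is limited by the number of arrays, and with 3 against 3 the smallest exact permutation p is 0.1 (two-sided). The labels name biological replicates, and the paper calls the triplicates independent.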

Additional observations from a re-analysis of the deposited data

How the results depend on the processing

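Of the members, Npy, Pdyn, Trh, Penk, Sst, Cck, Tac1 and Adcyap1 kept the sign of their difference under each of 13 settings, whereas Pomc and Vip did not. Pomc stayed near 0. Vip, at background on all arrays, ranged from -1.66 with the 75th percentile shift to 0.07 with normexp correction. A shift of each array to its 75th percentile moved the median difference of all probes from -0.04 to -1.02 and gave 604 probes for A+/G+ and 938 for A-/G+ instead of 851 and 222, and 11 and 1 of the 112 listed genes. Normexp correction gave 234 and 48 probes, and 2 listed genes, which were higher in A+/G+. By the methods' t-test there were 487 and 121 probes and 7 listed genes. Medians 2-fold apart gave 1797 and 1340 probes and 19 and 2 listed genes, and no size limit gave 2589 and 2583 probes and 21 and 6 listed genes. With single arrays left out, 340 to 1458 probes were called for A+/G+ and 77 to 490 for A-/G+, and 4 to 19 and 0 listed genes. Averaging both Pdyn probes gave a difference of 3.34. With the replicate number as a block, limma called 0 probes, and so no member, and 0 listed genes in either direction, with 11671 probes and 41 listed genes at an unadjusted p under 0.05. The numbers are not known to pair the samples, since deviations of same-numbered arrays correlated with r = 0.09, 0.06 and 0.01. The lower signal over background on the A-/G+ arrays limits each fold that rests on a dim A-/G+ probe. The cause of these dependences was not tested.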

Other observations

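The genes whose values over the 6 arrays, centered on their own mean, lay nearest to those of Npy were Ass1, 0610040J01Rik, Actbl2, Ccbe1 and Slco4a1, among 10988 genes that were well above background in all replicates of A-/G+. Their root mean square distances were 0.21 to 0.31 on the log2 scale and their differences -2.97 to -3.59. Ass1, which encodes argininosuccinate synthase of the urea and citrulline cycles, was nearest, its means being 7.37 for A+/G+ and 10.47 for A-/G+. Actbl2 was well above background in A-/G+ alone.

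The genes nearest to Pdyn among 14068 that were well above background in all replicates of A+/G+ were Elmod1, Fam179a, Dnah10, E030019B06Rik and Iqca, at distances of 0.26 to 0.45 and with differences of 4.80 to 5.02. Dnah10 encodes a dynein heavy chain of motile cilia. Each was well above background on at most 1 A-/G+ array. Among the genes nearest to Trh were Rhcg, Folh1, Serpina3n and Foxb1, at distances of 0.23 to 0.64. Rhcg, an ammonium transporter, had means of 8.13 and 3.09, and Folh1, a carboxypeptidase that cleaves the peptide transmitter NAAG, 7.36 and 2.64. The A-/G+ values of Pdyn, Trh and most of these neighbors were near background. The distances are a description over 6 arrays.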
